A study of Mus musculus with 15 samples.

Results

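The genes described here are the nuclear genes of oxidative phosphorylation, the mitochondrial machinery that turns the oxidation of nutrients into ATP. They were chosen by symbol alone, as every gene named Nduf, Sdha to Sdhd, Uqcr, Cox4 to Cox8 or Atp5, without pseudogenes marked -ps. This gave 93 of the 34245 genes in the table of the differentiation libraries and 90 of the 25965 genes in the table of the IL4 libraries, of which the 73 with more than 3 reads over its 6 libraries were used. The study followed mouse bone marrow cells as they became macrophages in colony-stimulating factor 1 (CSF1), the growth factor that macrophages need, and then exposed mature macrophages to interleukin 4 (IL4). All cells came from male C57BL/6 mice aged 8 to 10 weeks, no other genotype is given for any group, and the RNA was sequenced on an Ion Torrent instrument. Precursors were the non-adherent cells left after 2 days in CSF1 at 0.6 ng/ml with 15% fetal calf serum. Immature macrophages had 4 further days at 12 ng/ml with 10% serum. Mature macrophages had 1 day at 0.6, 2 days at 12 and 7 days at 120 ng/ml. The last pair of groups was mature macrophages kept a further 48 h at 120 ng/ml, either unstimulated or with IL4 at 20 ng/ml. Serum is given as 10% for this pair and for the mature macrophages. Each of the 5 groups had 3 libraries, and each library's title carries a mouse number from 1 to 3.

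Electrons enter the respiratory chain at complex I, which oxidises NADH, or at complex II, which is also the succinate dehydrogenase of the tricarboxylic acid cycle. They pass through coenzyme Q to complex III, through cytochrome c to complex IV, where oxygen is reduced, and the proton gradient built on the way drives complex V, the ATP synthase. The nuclear genes encode every subunit of complex II and most subunits of the other complexes, whose remaining core subunits are encoded by the mitochondrial genome. In macrophages, respiration is known to be kept or raised by IL4 and lowered by bacterial stimuli.

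By complex, the 93 members were 36 subunits of complex I, 8 assembly factors of complex I (the Ndufaf genes), 4 of complex II, 8 of complex III, 20 of complex IV and 15 of complex V, with Atp5s and Atp5sl, which are not subunits. The muscle, testis and other tissue forms Cox7b2, Cox8b, Cox8c and Ndufa4l2 had no read in any of the 9 differentiation libraries. The other 89 had reads, and 88 passed the filter on low counts. Cox4i2, the lung form of subunit 4, did not pass, with 49 reads in all.

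The differentiation libraries held 7897769 to 22167294 reads and the IL4 table's libraries 2408531 to 4214266. The members as a set had 70896 to 151990 reads per library in the former and 27404 to 51586 in the latter, though not every member had fewer there. Values below are CPM, reads scaled to a common library size with TMM factors, and log2 fold changes are given ± their standard error from edgeR's quasi-likelihood fit, with p-values adjusted over all genes tested. All 7 macrophage markers, among them Csf1r, Adgre1 and Mertk, rose from precursors to immature macrophages, and their summed level was 7055 to 9203 CPM in the former and 20107 to 41473 in the latter. Precursor cultures also carried markers of other marrow cells. Summed neutrophil markers (8 genes) were at 12164 to 18352 CPM in precursors, 126 to 192 in immature and 0.486 to 1.17 in mature macrophages, where Ly6g, S100a9, Camp, Ngp and Cxcr2 were at 0. B cell markers (5 genes) were at 220.0 to 311, 1.81 to 2.81 and 0 to 0.0765 CPM in turn, with Cd79a and Vpreb3 at 0 in both macrophage stages. Both lists were thus lower in both macrophage stages, and their part in the members' values was not tested.

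Scaled with TMM factors, the summed reads of the subunits were higher in macrophages of either stage than in precursors. All 83 subunit genes together gave 5735, 6037 and 5646 CPM in precursors, 7174, 7866 and 9324 in immature and 9348, 8173 and 7501 in mature macrophages. Precursors were the lowest group with no overlap, while the ranges of immature and mature macrophages overlapped. In bulk RNA, fewer cells of a type and less RNA per cell cannot be told apart. With TMM factors precursors were also lowest, with no overlap, in each of the 5 complexes. Without the TMM factors the sums were 6463, 6753 and 6323 CPM in precursors, 6636, 7685 and 9241 in immature and 8288, 7685 and 7113 in mature macrophages, and immature library 1 then overlapped the precursors. Without these factors the precursors lay below every other library only in complexes II and IV. In complexes III and V immature library 1, at 609 and 2346 CPM, then lay below all precursor libraries (618 to 676 and 2613 to 2805). The mean of all subunits went from 8121 CPM in immature to 8341 in mature macrophages with TMM factors and from 7854 to 7696 without them. Complex II, the succinate dehydrogenase, gave 402 ± 23.3 CPM (SD, n = 3) in precursors, 734 ± 39.1 in immature and 646 ± 92.5 in mature macrophages. Complex IV, the oxidase, gave 875 ± 18.6, 1347 ± 110 and 1404 ± 166 CPM. Complex I gave 1544 ± 68.0, 2136 ± 273 and 2360 ± 279 CPM, and complex III 578 ± 26.5, 716 ± 62.6 and 807 ± 79.3. Complex V gave 2380, 2508 and 2333 CPM in precursors, 2536, 3164 and 3866 in immature and 3547, 3061 and 2761 in mature macrophages, so that the lowest immature library lay just above the highest precursor library.

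The complexes took somewhat different shares of the subunit reads. Complex II had 6.92 ± 0.154% of them (SD, n = 3) in precursors, 9.10 ± 0.719% in immature and 7.76 ± 0.880% in mature macrophages, with no overlap between precursors and either later stage. Counted per kilobase of exons, the share of complex II in mature library 1 (4.23%) was below that in every precursor library (4.31% to 4.50%). Complex V had 41.4 ± 0.118%, 39.0 ± 3.23% and 37.4 ± 0.569%, and its share was lower in each mature library than in any precursor library. Shares of complexes I, III and IV were 26.6%, 9.95% and 15.1% in precursors and 28.3%, 9.71% and 16.8% in mature macrophages, but per kilobase the share of complex III was higher in mature macrophages, at 13.0% against 11.9%. These shares were not tested. The members with the most reads in each complex were Ndufa13, Sdha, Uqcrc1, Cox4i1 and Atp5b.

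**Figure D1:**
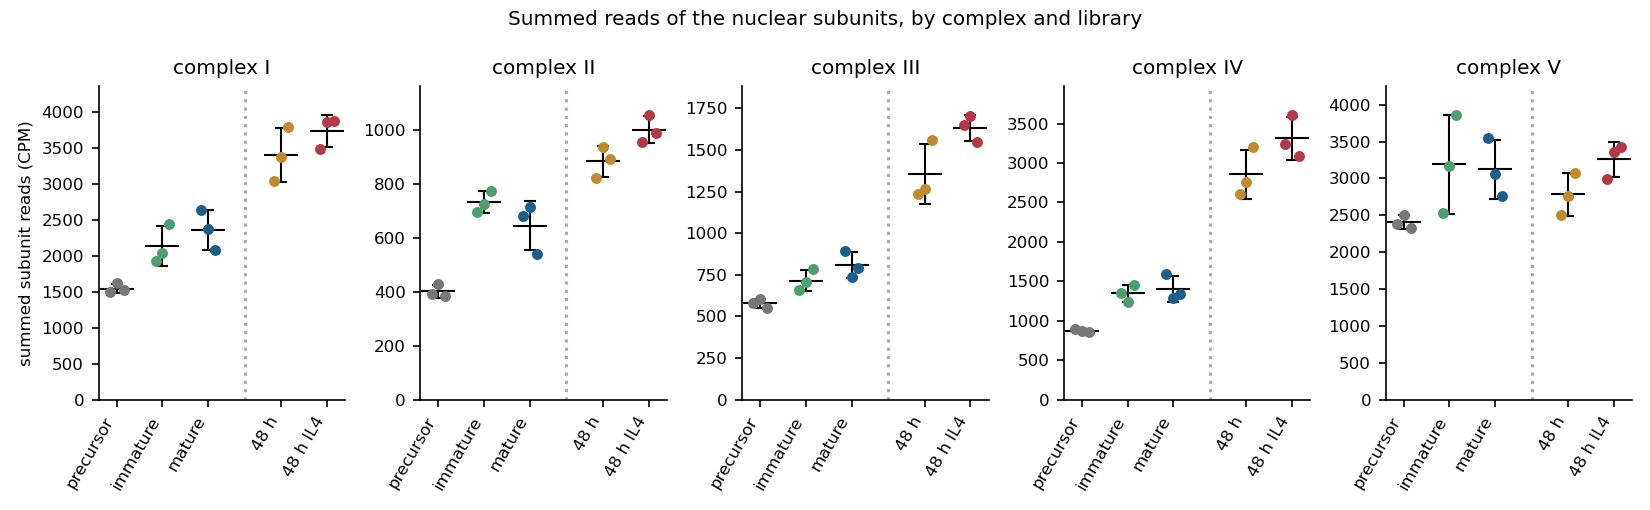
Summed reads (CPM, linear axis from 0) of the nuclear subunits of each complex, with 1 point per library and the mean ± SD of 3 libraries; the dotted line separates 2 tables that were made and scaled separately. With the TMM factors used here all precursor libraries lie lowest in every complex, which without these factors holds only for complexes II and IV. In complex II precursors lie at 384 to 428 CPM against 542 to 776 in the other differentiation groups.

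The 3 immature libraries were not alike. Library 3 had the highest value of its group for 59 of the 78 subunits tested and library 1 the lowest for 50. The same libraries differed in summed proliferation markers (Mki67, Top2a, Ccnb1, Cdk1 and Birc5), at 213 CPM in library 1, 838 in library 2 and 1029 in library 3. Precursors had 1789 to 2029 CPM of these markers. Among mature libraries, library 3 was lowest for 38 of 78 subunits and highest in proliferation markers at 838 CPM. In neither stage was any part of proliferation in the subunit values tested.

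From precursors to immature macrophages, 30 of the 88 members tested rose and 2 fell. Among all 13359 genes tested, 22.5% rose and 26.6% fell, so the members' share of risers (34.1%) was above the background and their share of fallers (2.27%) below it. Counting either direction, 36.4% of the members and 49.2% of all genes were called. The median log2 fold change of the members was 0.39, with quartiles of 0.12 and 0.70, against -0.07 for all genes. The fold change was above 0 in 73 members, and the libraries of the 2 stages did not overlap in 48 (54.5%), of which 46 were higher, against a background of 65.0% (29.4% higher and 35.6% lower). With the mouse number as a block 25 rose (28.4%) and 2 fell (2.27%), against 20.7% and 25.3% of all genes. Of the 30 risers, 15 were called in each of the 6 fits that left out 1 library. The count was 18 (20.5%) without precursor library 1 and 19 (21.6%) without precursor library 2, where 17.8% and 18.4% of all genes rose. In these 2 fits the members' share of risers was thus close to that of all genes. On the deposited log2 RPM, tested with limma, the median of all genes was 0.10, and the members' median stood 0.35 above it, against 0.46 with edgeR.

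**Figure D2:**
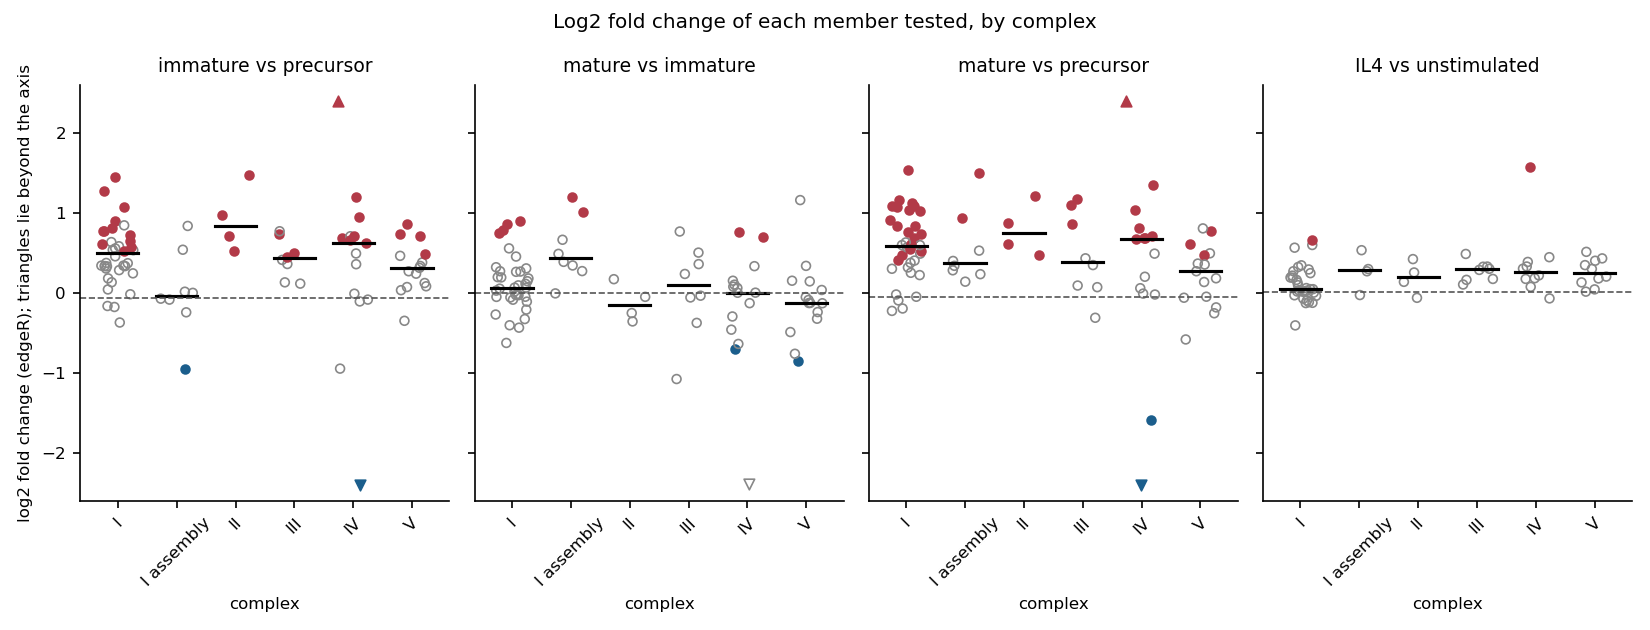
Log2 fold change of each member tested (y axis), by complex (x axis), in 4 comparisons; filled red points rose and filled blue points fell at an adjusted p under 0.05, open points did not pass, bars are medians of a complex, dashed lines the median of all genes and triangles lie beyond the axis. Red points crowd both comparisons with precursors, with medians of 0.39 and 0.49 over all members, and are few in the other 2.

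All 4 genes of complex II rose at this step. Sdhc and Sdhd are the membrane anchors of the complex, Sdha carries the flavin that oxidises succinate and Sdhb the iron-sulfur clusters. Sdhc (ENSMUSG00000058076, chr1:171127165-171150603) gave 46.0, 50.5 and 40.1 CPM in precursors, 103, 120.5 and 154 in immature and 109, 113 and 94.7 in mature macrophages. All 6 macrophage libraries lay above the 3 precursor libraries, and the difference of immature from precursor cells was 1.47 ± 0.19 on the log2 scale (adjusted p = 0.000133). It was the only member under an adjusted p of 0.001 at this step. Gene positions here are from the GRCm38 annotation. Sdha (ENSMUSG00000021577, chr13:74322254-74350280) gave 158, 175 and 159.6 CPM, then 321, 323 and 317, then 279, 283 and 187. Its immature libraries lay within 2% of each other and it rose by 0.96 ± 0.19 (adjusted p = 0.00178). Sdhd gave 52.0, 62.2 and 54.5 CPM in precursors and 91.1, 100.2 and 84.3 in immature macrophages, a rise of 0.71 ± 0.16. Sdhb gave 138, 141 and 130.1 CPM and then 183, 184 and 219.7. Its rise of 0.52 ± 0.16 had an adjusted p of 0.0214, and did not pass without precursor library 1 (0.0585), precursor library 2 (0.0533) or precursor library 3 (0.0686).

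Complex I, the largest of the complexes, had 12 of 36 subunits higher (33.3%) and none lower in immature macrophages, with a median of 0.49. Of all genes, 22.5% were higher and 26.6% lower. Core subunits, among them those encoded by Ndufv1, Ndufv2, Ndufs1, Ndufs3, Ndufs7 and Ndufs8, did not all pass. Ndufs3 gave 21.8, 31.2 and 28.4 CPM in precursors and 44.5, 46.9 and 47.1 in immature macrophages. It rose by 0.77 ± 0.17 and Ndufv2 by 0.52 ± 0.16. The adjusted p of Ndufv2 was 0.0182, and it did not pass without precursor library 2 (0.0756) or immature library 2 (0.0621). Ndufs1 had an adjusted p of 0.0354, and of 0.0613 with the mouse number as a block. It passed when immature library 1 was left out and had 0.0687 to 0.0997 when another library was. Ndufv1 (0.58 ± 0.25), Ndufs7 (0.55 ± 0.21) and Ndufs8 (0.24 ± 0.19) did not pass.

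Among the accessory subunits, which surround the core, the highest fold change was that of Ndufa1. It gave 11.5, 7.82 and 7.94 CPM in precursors and 29.6, 20.9 and 23.5 in immature macrophages, with no overlap, and rose by 1.44 ± 0.27 (adjusted p = 0.00132). Ndufa2 gave 33.9, 34.4 and 35.03 CPM and then 64.8, 67.1 and 118, with library 3 above the other immature libraries, and rose by 1.27 ± 0.25. Ndufa9, of the part that binds coenzyme Q, gave 30.3, 36.8 and 35.9 CPM and then 62.1, 73.3 and 81.1, a rise of 1.07 ± 0.21. Ndufv3 and Ndufc2 rose by 0.81 ± 0.19 and 0.72 ± 0.18. All 5 of these calls held in each fit that left out 1 library. Ndufb3, Ndufb11 and Ndufs5 were also called, at adjusted p-values of 0.0271, 0.0323 and 0.0333. Ndufb3 passed when immature library 1 or immature library 2 was left out and had 0.0555 to 0.0850 when another library was, Ndufb11 passed when immature library 1 was left out and had 0.0580 to 0.0987 when another library was, and Ndufs5 passed when precursor library 1, precursor library 2 or immature library 1 was left out and had 0.0626 to 0.117 when another library was.

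None of the 8 assembly factors of complex I, which build it and do not stay in it, rose at this step, and Ndufaf4 fell. Their median was -0.04. Ndufaf4 (ENSMUSG00000028261, chr4:24898083-24905001), which works with Ndufaf3 early in building the complex, gave 14.1, 16.1 and 11.7 CPM in precursors, 5.91, 5.73 and 10.1 in immature and 12.9, 17.0 and 19.4 in mature macrophages. All 3 immature libraries lay below the other 6. The change to immature macrophages was -0.96 ± 0.28 (adjusted p = 0.0164), and it did not pass without precursor library 2 (0.0630), immature library 1 (0.0563) or immature library 2 (0.0757).

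In complex III, 3 of 8 subunits rose (37.5%, against 22.5% of all genes), with a median of 0.43. Uqcrb, which binds coenzyme Q, gave 30.0, 37.5 and 34.2 CPM in precursors and 47.5, 58.4 and 63.6 in immature macrophages, a rise of 0.73 ± 0.19 (adjusted p = 0.00798) that held in each fit without 1 library. The Rieske iron-sulfur protein Uqcrfs1 gave 56.4, 59.7 and 54.0 CPM and then 78.1, 73.2 and 80.7. The hinge protein Uqcrh gave 64.6, 74.9 and 69.5 CPM and then 106, 82.8 and 105. Neither overlapped between the stages, and their changes were 0.45 ± 0.14 (adjusted p = 0.0257) and 0.49 ± 0.18 (adjusted p = 0.0477). Uqcrfs1 passed when immature library 3 was left out and had 0.0532 to 0.0812 when another library was, and Uqcrh passed when immature library 2 was left out and had 0.0761 to 0.139 when another library was. With the mouse number as a block their adjusted p-values were 0.0600 and 0.0808. Uqcrc1, a core protein and the member of complex III with the most reads, gave 233, 223 and 203 CPM in precursors and 195, 252 and 265 in immature macrophages. Neither it (0.11 ± 0.20) nor its partner Uqcrc2 (0.13 ± 0.19) passed.

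Complex IV had 7 risers (46.7%) and 1 faller (6.67%) among its 15 tested members, with a median of 0.62. Of all genes, 22.5% rose and 26.6% fell. Subunit 4 is the regulatory subunit that binds ATP, and its usual form Cox4i1 (ENSMUSG00000031818, chr8:120668222-120674207) gave 138, 182 and 169 CPM in precursors, 373, 319 and 431 in immature and 538, 356 and 349 in mature macrophages. All 6 macrophage libraries lay above the 3 precursor libraries, and the rise to immature macrophages was 1.20 ± 0.22 (adjusted p = 0.00134). In the annotation 9.94% of its exon bases overlap Emc8 on the other strand, whose reads could not be told apart where counting ignores strand. Cox7b rose by 0.71 ± 0.19, from 42.4, 42.7 and 41.8 to 60.6, 67.1 and 80.2 CPM. Cox5a gave 49.6, 49.9 and 50.7 CPM in precursors, 74.1, 78.5 and 88.9 in immature and 36.1, 47.0 and 64.6 in mature macrophages. It rose by 0.68 ± 0.21 (adjusted p = 0.0192) and did not pass without precursor library 1 (0.0560) or precursor library 2 (0.0555). Ndufa4, first named as a complex I gene and now counted with complex IV, rose by 0.62 ± 0.18 (adjusted p = 0.0142) and did not pass without precursor library 1 (0.0520) or immature library 2 (0.0555). Cox7a2l, which helps complexes III and IV join into supercomplexes, gave 96.1, 102 and 146 CPM in precursors and 290.1, 187 and 184 in immature macrophages. Immature library 1 stood above the other 2, and the rise of 0.94 ± 0.30 had an adjusted p of 0.0228 and did not pass without precursor library 1 (0.0849), precursor library 2 (0.0771) or immature library 1 (0.0781). Cox6c was called at 0.0432 and passed when precursor library 3 was left out and had 0.0568 to 0.152 when another library was.

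The tissue-specific forms of complex IV subunits were all rare, and they did not move in the same direction. Cox7a1 (ENSMUSG00000074218, chr7:30184144-30186078), the heart and skeletal muscle form of subunit 7a, had 7, 4 and 3 reads in precursors, 22, 14 and 24 in immature and 35, 16 and 23 in mature macrophages. Per kilobase it made up 0.283% to 0.680% of Cox7a1 and Cox7a2 together in precursors, 2.52% to 4.88% in immature and 1.84% to 3.14% in mature macrophages. It rose by 2.84 ± 0.55 to immature macrophages (adjusted p = 0.00178), and muscle markers (Myh1, Actn2, Ckm and Mylpf) summed to 1.09 to 2.37 CPM in precursors and 0.551 to 2.04 in immature macrophages. Cox6b2 (ENSMUSG00000051811, chr7:4751792-4753094), the testis form of subunit 6b, went the other way, with 15, 29 and 33 reads in precursors, 1, 2 and 0 in immature macrophages and none in mature ones. It was called lower in immature macrophages (adjusted p = 0.00544) and was at least 16.6-fold lower in mature macrophages than in precursors, taking 3 reads over the group as what a count of 0 allows. Cox6a2, the heart and muscle form of subunit 6a, had 86, 82 and 36 reads in precursors and 30, 4 and 12 in mature macrophages, and at most 2.87% of the Cox6a pair per kilobase. Cox4i2 had 13, 21 and 0 reads in precursors, 2, 1 and 1 in immature and 5, 3 and 3 in mature macrophages. Cox8a, the common form of subunit 8, gave 72.5, 65.0 and 54.8 CPM in precursors, 91.4, 95.9 and 82.5 in immature and 123, 73.4 and 73.2 in mature macrophages and passed in neither comparison with precursors. Cox6b2 and Cox7a1 rest on so few reads that their fold changes are rough.

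In complex V, 4 of 15 subunits rose (26.7%, near the 22.5% of all genes), with a median of 0.31. Atp5k, subunit e of the membrane part, gave 18.1, 18.6 and 20.1 CPM in precursors, 25.4, 31.9 and 46.1 in immature and 28.3, 34.7 and 33.7 in mature macrophages. The 3 precursor libraries lay below the 6 others, and it rose by 0.86 ± 0.23 (adjusted p = 0.00915). The catalytic head is built of the alpha and beta subunits. Atp5a1, which encodes alpha, gave 506, 556 and 516 CPM and then 706, 886 and 1032, and rose by 0.73 ± 0.21 (adjusted p = 0.0136), but did not pass without precursor library 1 (0.0512). Atp5b, which encodes beta, gave 661, 688 and 609 CPM and then 607, 964 and 1122. Its immature library 1 was lower than every precursor library, and the difference of 0.46 ± 0.25 did not pass (adjusted p = 0.150). Atp5o, the stalk protein that links head and membrane part, passed at 0.0426 and Atp5g2 at 0.0440. With the mouse number as a block they had 0.0748 and 0.0556. Atp5o passed when immature library 1 was left out and had 0.0918 to 0.120 when another library was. Its exons are overlapped over 47.9% of their bases by the antisense genes Gm15976 and D430001F17Rik and a second entry named Atp5o. Atp5g2 is 1 of 3 genes for subunit c of the membrane ring and had 0.0558 to 0.112 when any 1 library was left out. It gave 30.8, 29.6 and 31.5 CPM in precursors, 48.9, 42.8 and 58.0 in immature and 17.9, 40.0 and 30.3 in mature macrophages. Atp5g1 gave 53.3, 60.2 and 45.9 CPM, then 38.3, 57.9 and 71.4, then 30.2, 40.7 and 62.3, and Atp5g3 91.8, 95.4 and 86.3, then 80.0, 101 and 158, then 61.8, 88.4 and 90.5. Neither of these other subunit c genes passed at any step, with first differences of 0.07 ± 0.29 and 0.31 ± 0.25.

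From immature to mature macrophages, 8 of the 88 members rose (9.09%) and 2 fell (2.27%), against 7.52% and 7.38% of all genes, and 14.9% in either direction. Their median was 0.04 against 0 for all genes, and below 0 without immature library 1 (-0.04) or mature library 1 (-0.01). The libraries did not overlap in 17, with 9 higher and 8 lower, against a background of 32.2% (16.8% and 15.4%). None of these 10 calls held in each of the 6 fits without 1 library. The number of risers was 2, 1 and 5 without immature library 1, 2 and 3 and 5, 4 and 9 without mature library 1, 2 and 3. The number of fallers was 0, 0, 1, 0, 3 and 3. In these fits 3.05% to 9.27% of all genes rose and 4.21% to 10.5% fell. With the mouse number as a block, 5 rose (5.68%) and 2 fell (2.27%), against 5.56% and 6.02% of all genes.

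Both partners of the early complex I assembly step were higher in mature macrophages. Ndufaf4 rose by 1.19 ± 0.28 from its low immature level (adjusted p = 0.0183), but did not pass without immature library 1 (0.0653) or immature library 2 (0.0918). Ndufaf3 gave 8.75, 13.6 and 12.1 CPM in precursors, 10.6, 10.5 and 11.6 in immature and 24.7, 21.6 and 19.5 in mature macrophages. Its mature libraries lay above all 6 others, and it rose by 1.01 ± 0.22 (adjusted p = 0.0129), but did not pass without immature library 2 (0.0635). The other 6 assembly factors did not pass.

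The 4 subunits of complex I that rose (11.1%, against 7.52% of all genes) were Ndufs5, Ndufb4, Ndufa7 and Ndufa13. Ndufs5 (ENSMUSG00000028648, chr4:123712710-123718202) gave 15.1, 15.2 and 9.70 CPM in precursors, 18.6, 21.3 and 22.7 in immature and 41.7, 41.8 and 32.7 in mature macrophages. Its 3 stages were ordered with no overlap, and it rose by 0.89 ± 0.22 at this step (adjusted p = 0.0211), but did not pass without immature library 1 (0.0744), immature library 2 (0.0808), mature library 1 (0.0532) or mature library 2 (0.0632). Ndufb4 gave 20.95, 26.8 and 17.1 CPM in immature and 37.3, 34.9 and 45.7 in mature macrophages, a rise of 0.86 ± 0.21 (adjusted p = 0.0190) that did not pass without immature library 1 (0.0597) or immature library 3 (0.0607). Ndufa13, a subunit also known as the cell death protein GRIM-19, gave 121, 125 and 109.8 CPM in precursors, 151, 126 and 183 in immature and 323, 255 and 195 in mature macrophages. Its exons overlap those of Tssk6 on the other strand over 30.0% of their bases. It rose by 0.75 ± 0.21 and Ndufa7 by 0.79 ± 0.22, and with the mouse number as a block their adjusted p-values were 0.0740 and 0.0722. Ndufa13 passed when immature library 3 or mature library 3 was left out and had 0.0812 to 0.173 when another library was, and Ndufa7 passed when mature library 3 was left out and had 0.0608 to 0.163 when another library was.

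In complex IV, Cox7a2 and Cox7c, which encode small membrane subunits, rose at this step, while their changes at the first step, -0.01 ± 0.17 and -0.09 ± 0.18, did not pass. Cox7a2 gave 82.8, 70.1 and 55.1 CPM in precursors, 64.3, 68.3 and 73.6 in immature and 108, 111 and 116 in mature macrophages. Cox7c gave 60.5, 54.2 and 40.4 CPM, then 54.0, 46.0 and 46.0, then 81.2, 86.2 and 79.0. For both, the mature libraries lay above all 6 others. The rises were 0.70 ± 0.17 (adjusted p = 0.0222, 0.0533 with the block) and 0.75 ± 0.18 (0.0187, 0.0310 with the block). Cox7a2 did not pass without immature library 1 (0.0779), immature library 2 (0.0959) or mature library 2 (0.0529), nor Cox7c without immature library 2 (0.0955), immature library 3 (0.0611) or mature library 2 (0.0554). Cox5a changed by -0.71 ± 0.21, to a level that overlapped that of precursors. Atp5d, the delta subunit of the complex V stalk, had 119, 123 and 153 CPM in immature and 54.4, 59.2 and 105 in mature macrophages, a change of -0.85 ± 0.24. Both fallers had adjusted p-values near the threshold (0.0437 and 0.0384). Cox5a passed when mature library 3 was left out and had 0.0701 to 0.118 when another library was, and Atp5d passed when mature library 3 was left out and had 0.0583 to 0.118 when another library was. Atp5l, subunit g of the membrane part, gave 457, 86.2 and 169.8 CPM in mature macrophages, with library 1 far above the other 2, and its change did not pass (1.16 ± 0.47, adjusted p = 0.126).

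**Figure D3:**
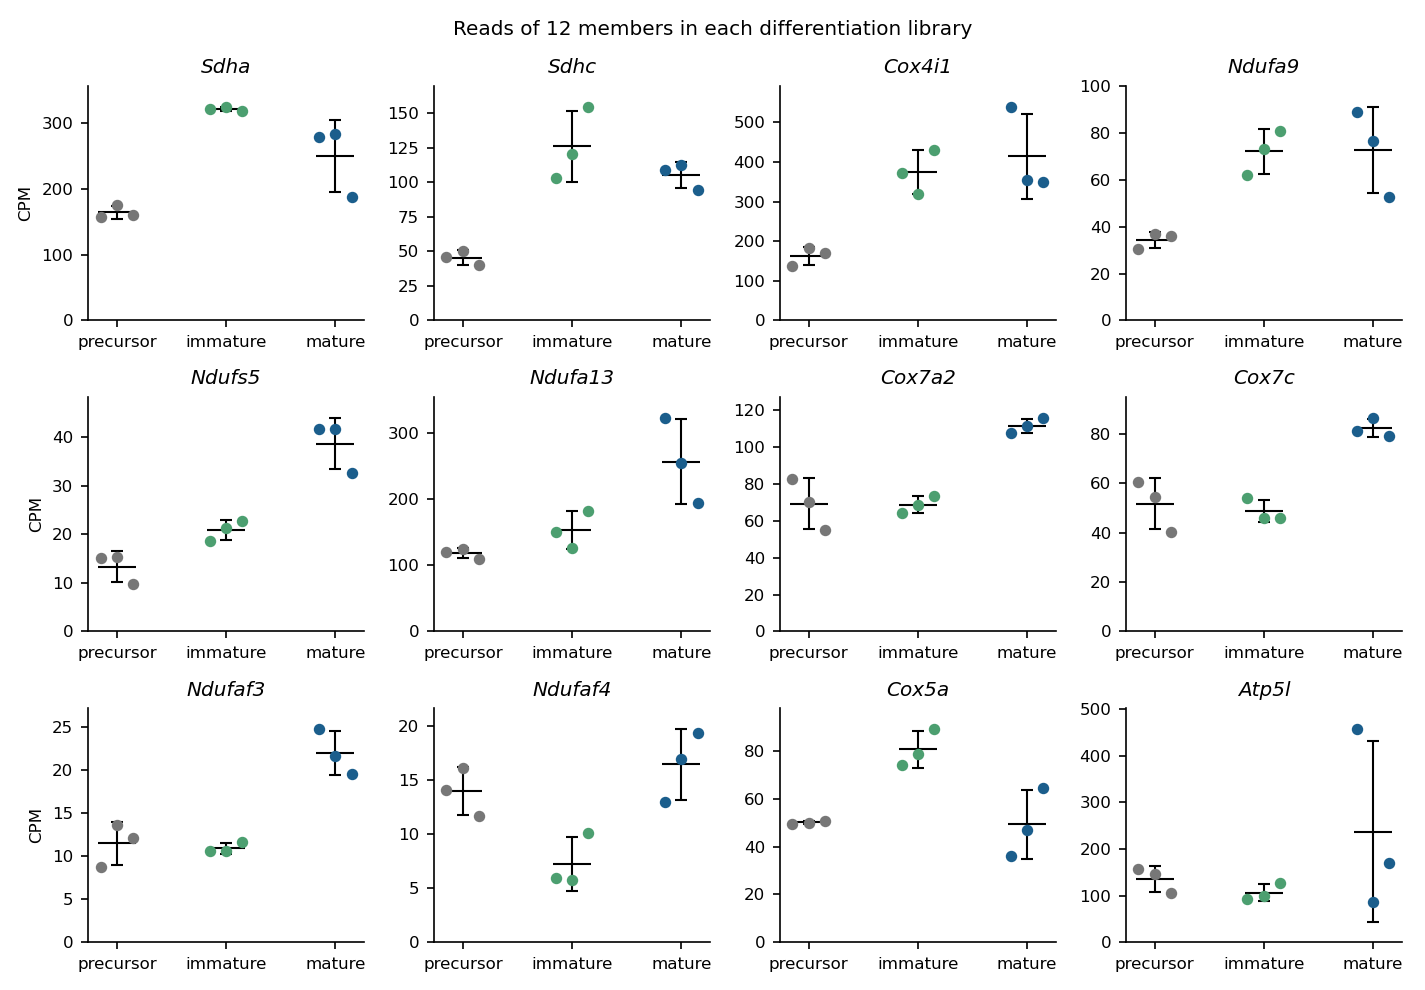
CPM (linear axes from 0) of 12 members in the 9 differentiation libraries, with 1 point per library and the mean ± SD of 3. Sdha, Sdhc, Cox4i1 and Ndufa9 were higher from the immature stage on, with Sdhc at 40.1 to 50.5 CPM in precursors and at least 94.7 later; Cox7a2, Cox7c and Ndufaf3 were higher in mature macrophages only, Ndufaf4 was lowest and Cox5a highest in immature macrophages, and Atp5l had 1 high library.

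Between precursors and mature macrophages, the ends of the series, 40 of 88 members rose (45.5%) and 2 fell (2.27%), against 25.8% and 28.5% of all genes, and 54.3% in either direction. Their median was 0.49 against -0.05. Without 1 library the number of risers was 29 to 43 (32.6% to 48.3%), against 21.4% to 26.5% of all genes. Of the 40 risers, 26 were called in each of those 6 fits. The libraries did not overlap in 49, with 46 higher and 3 lower, against a background of 64.1% (29.7% and 34.4%). With the mouse number as a block 32 rose (36.4%) and 3 fell, against 23.5% and 27.8% of all genes. This comparison shares its precursor and mature libraries with the 2 described above, so its calls are not separate evidence. Complex I had 20 risers of 36 (55.6%), complex II 4 of 4 (100%), complex III 3 of 8 (37.5%) and complex IV 8 of 15 (53.3%). Complex V had 3 of 15 (20.0%), below the 25.8% of all genes. Only Cox6a2 and Cox6b2 fell.

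The highest fold change in complex I was that of Ndufs5 at 1.53 ± 0.22 (adjusted p = 0.000221). Ndufa12, an accessory subunit, gave 29.8, 31.9 and 21.6 CPM in precursors and 66.3, 57.8 and 52.6 in mature macrophages, with no overlap, and rose by 1.08 ± 0.25 (0.00367). Ndufa2, Ndufa13, Ndufa9, Ndufa7 and Ndufa1 rose by 1.16 ± 0.25, 1.12 ± 0.22, 1.08 ± 0.21, 1.07 ± 0.22 and 1.03 ± 0.27. Among assembly factors, Ndufaf3 rose by 0.93 ± 0.22 (0.00455) and Ndufaf2 by 1.49 ± 0.46 (0.0183). Ndufaf2, which has 65.6% of its exon bases overlapped by the noncoding gene B230220B15Rik, gave 2.56, 3.67 and 2.004 CPM in precursors and 12.3, 6.67 and 4.51 in mature macrophages and did not pass without precursor library 1 (0.0564), precursor library 3 (0.0660) or mature library 1 (0.0871). Sdhc and Sdhd rose by 1.21 ± 0.19 (0.000334) and 0.87 ± 0.16 (0.000955). Sdha rose by 0.60 ± 0.19 (0.0186) but did not pass without precursor library 1 (0.0633), precursor library 3 (0.0572), mature library 1 (0.0536) or mature library 2 (0.0593). Sdhb had an adjusted p of 0.0312, or 0.0620 with the mouse number as a block, and did not pass without precursor library 1 (0.0749), precursor library 2 (0.0685), precursor library 3 (0.0927) or mature library 2 (0.0961).

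In complex III the small subunits Uqcr11, Uqcrb and Uqcr10 rose. Uqcr11 gave 64.4, 51.8 and 42.2 CPM in precursors and 152, 125 and 80.1 in mature macrophages, and the rises were 1.17 ± 0.25 (0.00251), 1.09 ± 0.19 (0.000666) and 0.85 ± 0.21 (0.00574). In complex IV, Cox4i1 rose by 1.34 ± 0.22 (0.000523) and Cox6b1, the common form of subunit 6b, by 1.03 ± 0.27 (0.00806), from 48.8, 40.9 and 27.3 to 78.8, 101 and 60.6 CPM. Cox6a2 fell, with a change of -1.59 ± 0.57 (0.0345) that did not pass without precursor library 1 (0.123), precursor library 2 (0.0546), mature library 2 (0.0990) or mature library 3 (0.0970). In the annotation 10.3% of its exon bases overlap Itgad. In complex V, Atp5k rose by 0.77 ± 0.22 (0.0142). Atp5a1 (0.0298) and Atp5j2 (0.0379) also passed, with 0.0514 and 0.0737 under the block. Atp5a1 passed when mature library 3 was left out and had 0.0603 to 0.0894 when another library was, and Atp5j2 passed when precursor library 1 or mature library 3 was left out and had 0.0606 to 0.139 when another library was.

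A promoter window from RefSeq (build GRCm38.p6, 250 bases before to 50 after the start) was given for 74 members. They were searched on both strands for the letters GCGCATGC, part of the binding sequence of NRF1, a factor known to bind promoters of respiratory genes. These letters stood in a window of 12 of the 74 members (16.2%) and of 3.05% of 27025 genes, which were not limited to genes with reads here. In 7 of the 12 (9.46%, against 1.07% of genes) the next bases made a palindrome of 10 letters, which lay upstream of the RefSeq start in 5. The 5 stretches of 100 bases are shown 5′ to 3′ on the gene's strand, with the palindrome in capitals, because the members that share it had different patterns. Atp5k rose, Ndufaf4 fell and then rose, Cox6a1 and Ndufa11 did not pass in any comparison, and Atp5g2 passed only from precursors to immature macrophages.
Atp5k: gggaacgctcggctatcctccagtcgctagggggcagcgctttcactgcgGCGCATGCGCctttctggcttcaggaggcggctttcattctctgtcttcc
Ndufaf4: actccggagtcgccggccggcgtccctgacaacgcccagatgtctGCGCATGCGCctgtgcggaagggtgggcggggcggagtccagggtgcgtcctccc
Cox6a1: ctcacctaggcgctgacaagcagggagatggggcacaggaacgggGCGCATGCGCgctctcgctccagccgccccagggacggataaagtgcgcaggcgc
Ndufa11: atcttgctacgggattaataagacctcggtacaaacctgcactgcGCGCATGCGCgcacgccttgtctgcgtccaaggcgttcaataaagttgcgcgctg
Atp5g2: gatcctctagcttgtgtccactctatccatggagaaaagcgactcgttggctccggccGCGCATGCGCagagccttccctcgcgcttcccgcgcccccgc
They lie at chr5:108434400-108434499 (minus strand), chr4:24897925-24898024 (plus), chr5:115349066-115349165 (minus), chr17:56717657-56717756 (plus) and chr15:102671048-102671147 (minus), with the first capital 50, 113, 162, 60 and 42 bases upstream of the RefSeq start. The gene positions used elsewhere here start 2 of these minus-strand genes further upstream, Atp5k at chr5:108434448 and Atp5g2 at chr15:102672352. By those positions the stretch of Atp5g2 lies within the gene and that of Atp5k spans its start. Cox6a1 gave 160.5, 121 and 109 CPM in precursors, 97.6, 117 and 147 in immature and 106, 107 and 174 in mature macrophages, and Ndufa11 13.4, 30.2 and 20.8, then 25.8, 28.02 and 27.7, then 24.5, 33.3 and 22.6. The letters CCGGAAG, which match the binding sequence of GABPA, stood in 18 of the 74 windows (24.3%) and 9.93% of genes. The letters TGACGTCA, a cyclic AMP response element, stood in 4 (5.41%) and 2.03%, and CACGTG, the E-box, in 5 (6.76%) and 8.09%. The palindrome contains GCGCATGC, and none of the other motifs contains another. A match describes letters only, and binding was not measured.

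Genes around the respiratory chain were counted from lists chosen by function. Of the 13 subunits encoded by the mitochondrial genome, 10 fell (76.9%) from precursors to immature macrophages and none rose. They took 0.382% to 0.505% of reads in precursors, 0.0924% to 0.149% in immature macrophages and 0.0786%, 0.0579% and 0.363% in mature libraries 1, 2 and 3. Mature library 3 thus lay near the precursors, and only mt-Nd5 and mt-Cytb passed as lower in mature macrophages than in precursors. Of 19 genes of the tricarboxylic acid cycle and pyruvate dehydrogenase, 9 rose and 2 fell to the immature stage (47.4% and 10.5%). None passed at the next step, and 9 rose and 1 fell from precursors to mature macrophages (47.4% and 5.26%). For 36 further assembly factors the counts were 6 and 2 (16.7% and 5.56%), then 3 and 0 (8.33% and 0%), then 11 and 1 (30.6% and 2.78%). For 78 mitochondrial ribosomal proteins they were 8 and 3 (10.3% and 3.85%), then 4 and 1 (5.13% and 1.28%), then 17 and 0 (21.8% and 0%). Cytosolic ribosomal proteins gave 10 risers and 1 faller of 83 at the first step (12.0% and 1.20%), 0 and 11 at the second (0% and 13.3%), and 3 and 14 between the ends (3.61% and 16.9%). Among all genes 22.5% rose and 26.6% fell at the first step, 7.52% and 7.38% at the second, and 25.8% and 28.5% between the ends.

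Of 15 regulators of mitochondrial biogenesis tested, 1 rose (6.67%) and 4 fell (26.7%) to the immature stage, against 22.5% and 26.6% of all genes. The nuclear receptor Esrra, known to drive respiratory genes, gave 31.1, 32.1 and 28.8 CPM in precursors, 62.4, 56.6 and 74.6 in immature and 127, 127 and 64.5 in mature macrophages, and rose by 1.07 ± 0.25 (0.00493). The coactivator Pprc1 and the growth regulator Myc fell, with Myc at 51.2, 48.8 and 24.8 CPM in precursors and 1.42, 0.716 and 6.13 in immature macrophages. Slc25a4, an exchanger of ADP and ATP across the inner membrane, rose by 1.27 ± 0.25 (0.00190), and the phosphate carrier Slc25a3 by 0.79 ± 0.17 (0.00296). Of 7 genes tested in the list of adenine nucleotide and phosphate carriers, 3 rose (42.9%) and 0 fell. Cycs, which encodes cytochrome c, fell, with a change of -0.88 ± 0.33 to the immature stage (0.0458), and rose by 1.27 ± 0.33 to the mature one (0.0271). Among the 17 genes of electron carriers and coenzyme Q, 2 rose (11.8%) and 3 fell (17.6%) to the immature stage. To the mature stage 1 rose and 1 fell (5.88% each).

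The IL4 table covers fewer members. As many as 12 members with over 1000 reads in the differentiation table had 3 reads or fewer here: Atp5f1, Atp5g1, Atp5g2, Atp5h, Atp5l, Cox7a2l, Cox7c, Ndufa12, Ndufa7, Ndufab1, Ndufb4 and Ndufs5. In their transcripts a median of 18.4% of 31-base words also occur in other genes, against 3.80% for the 66 other members with over 1000 reads. Cox6c had 30 reads, and the mitochondrially encoded subunits together had 1. Genes that every cell uses were at or near 0 too, with Gapdh at 1 read and Cycs at 0. Whether the tables were counted alike is not given in the sources used here, so levels were not compared between them, and these members are listed at or near 0 rather than described as silent.

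**Figure D4:**
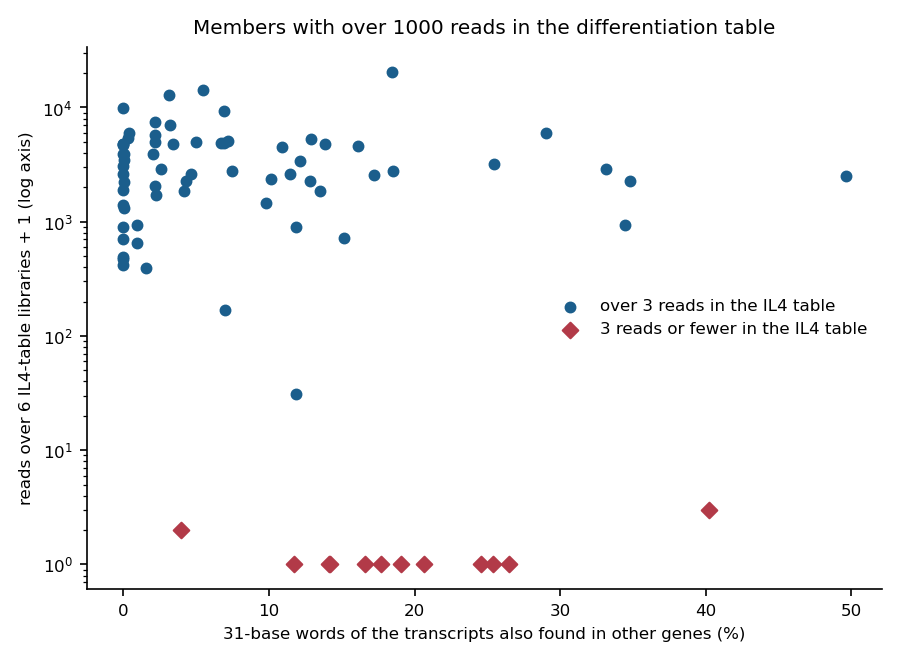
Reads in the IL4 table (log axis, 1 added) against the percentage of 31-base words that the member's transcripts share with other genes, for members with over 1000 reads in the differentiation table. The 12 members with 3 reads or fewer (red) lie between 3.99% and 40.2% of shared words, and other members with as many shared words had far more reads.

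The 73 members with more than 3 reads in the IL4 table include 3 that are not subunits, Atp5s, Atp5sl and Cox4nb. Cox4nb, also named Emc8, is not listed under this symbol among the differentiation genes. Of the 73 members, 70 passed the filter, and by edgeR 2 of them rose with IL4 (2.86%) and 0 fell. Among all 8936 genes tested, 10.5% rose and 10.3% fell, and 20.8% were called in either direction, so the members' share was below the background. At an unadjusted p under 0.05, 10 members passed, all higher (14.3%, against 31.5% of all genes in either direction). DESeq2 called 1 higher and 0 lower. Their median was 0.18 against 0.01 for all genes, and 57 of 70 fold changes were above 0. The libraries did not overlap in 15 (21.4%), of which 14 were higher with IL4, against a background of 35.8% (18.4% higher and 17.4% lower). Summed subunit reads were 10215, 11106 and 12528 CPM in unstimulated cells and 12321, 13610 and 12921 with IL4, and the ranges overlapped.

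Libraries with the same mouse number in their titles deviated together in this table, though weakly for number 2 (correlation 0.168), so the number was also used as a block. The descriptions of the same libraries carry other mouse codes, which differ between the groups, so whether a pair came from 1 mouse cannot be told. With the block 10 members rose and none fell, against 16.2% and 16.1% of all genes, and 10 of 70 is 14.3%. Ndufs8 and Cox6a2 rose in both fits. Ndufs8 (ENSMUSG00000059734, chr19:3908870-3912717), a core iron-sulfur subunit of complex I, gave 125, 109 and 116 CPM unstimulated and 189, 171 and 191 with IL4. The groups did not overlap, and the rise of 0.66 ± 0.16 (adjusted p = 0.0129, 0.00180 with the block) held in each of the 6 fits without 1 library. Cox6a2 had only 9, 1 and 7 reads unstimulated and 21, 15 and 10 with IL4. Its rise was 1.56 ± 0.43 (0.0251), which did not pass without unstimulated library 2 (0.0671), unstimulated library 3 (0.0636), IL4 library 1 (0.0697) or IL4 library 2 (0.0806). Muscle markers summed to 1.48 to 2.81 CPM unstimulated and 0.535 to 0.991 with IL4.

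The other 8 members passed only with the block. Ndufa6, an accessory subunit of complex I, gave 108, 132 and 176 CPM unstimulated and 171, 199.9 and 243 with IL4 for mouse numbers 1, 2 and 3, so that the groups overlapped while each pair rose, by 0.57 ± 0.14 in all (adjusted p = 0.00511, 0.0943 without the block). Uqcrq of complex III gave 129.8, 144 and 205 and then 184, 239 and 246 CPM, with the same pattern (0.50 ± 0.15, 0.0171). Ndufa13 gave 113, 92.6 and 129 and then 216, 159 and 131 CPM, and the pair of number 3 hardly differed (0.58 ± 0.18, 0.0185). In complex V, Atp5b gave 619.7, 591 and 582 CPM unstimulated and 682, 840.1 and 888 with IL4 (0.42 ± 0.15, 0.0437), and Atp5d passed at 0.0205. Cox7a2, Ndufaf4 and Sdhb passed at 0.0321, 0.0328 and 0.0477. Ndufc2 was the one member of the 70 tested whose IL4 libraries all lay lower, at 19.2, 20.5 and 22.03 CPM against 25.8, 33.3 and 23.6, and it did not pass (-0.41 ± 0.21, adjusted p = 0.203). The rare forms Cox6b2, with 6, 2 and 6 reads unstimulated and 0, 1 and 1 with IL4, and Cox7a1, with 10, 4 and 11 and then 3, 3 and 5, were also lower in CPM in each IL4 library, for Cox7a1 barely (1.644 against 1.645 CPM in the nearest libraries), but did not pass the filter on low counts.

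**Figure D5:**
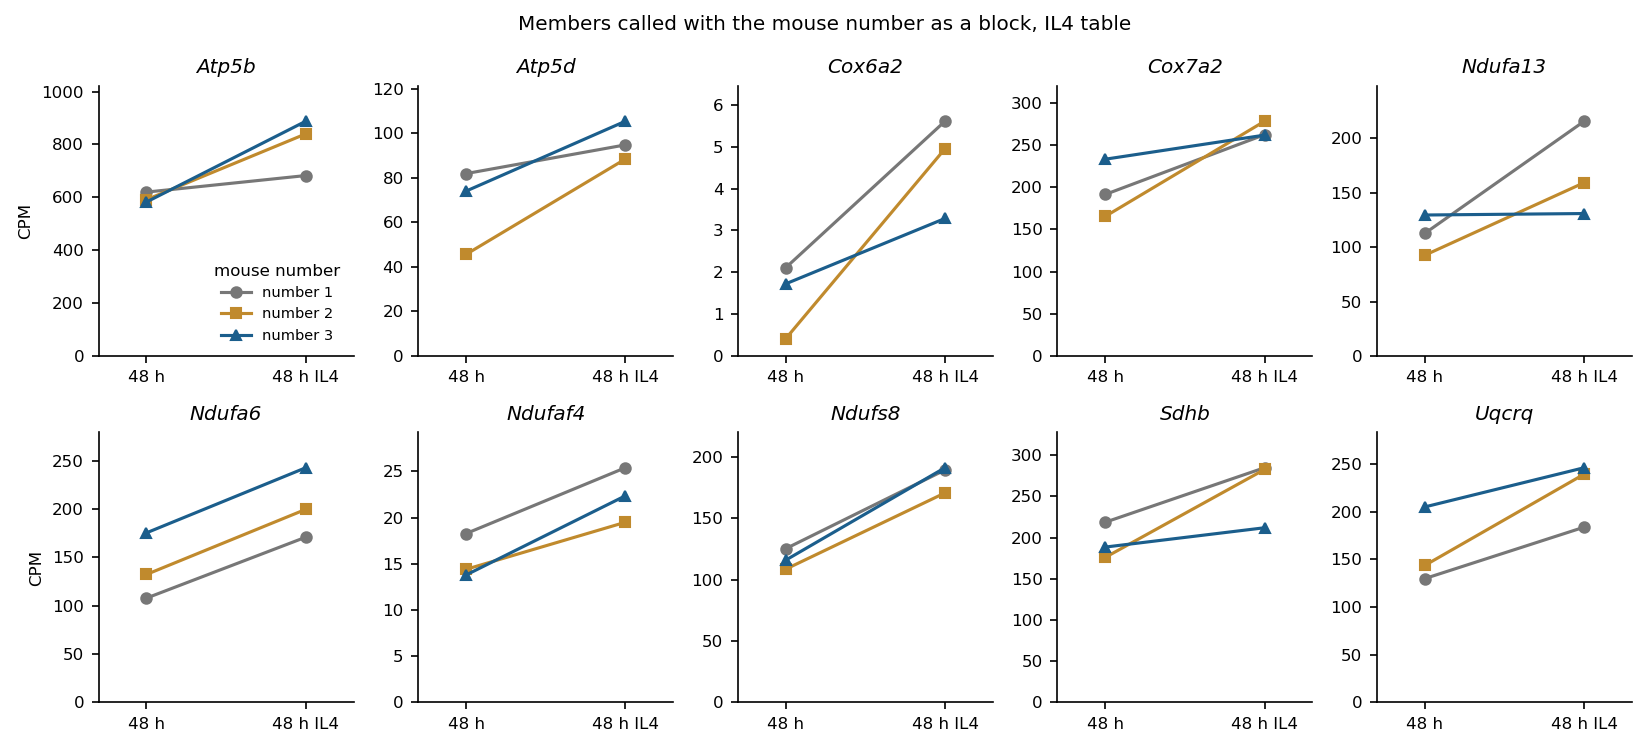
CPM (linear axes from 0) of the 10 members that passed with the mouse number as a block, unstimulated and with IL4, with a line joining the libraries of each mouse number. In each panel all 3 lines rise, steeply for Ndufs8 and by little in the pair of number 3 for Ndufa13.

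Around the chain, IL4 raised Ppargc1b, a coactivator of mitochondrial biogenesis, from 3.28, 2.88 and 5.91 to 8.02, 17.5 and 15.8 CPM (1.71 ± 0.37, adjusted p = 0.00691), and Myc from 91.6, 63.3 and 81.5 to 129, 140.1 and 152 CPM (0.83 ± 0.18, 0.00811). They were the only 2 risers among 13 regulators of mitochondrial biogenesis tested (15.4%), and 1 fell (7.69%). The median of the 13 was 0.04, and among all genes tested 10.5% rose and 10.3% fell. Of 68 mitochondrial ribosomal proteins and 16 further assembly factors tested, 0 passed by edgeR, with 5 and 2 at an unadjusted p under 0.05, and of 18 tricarboxylic acid cycle genes 1 rose and 1 fell. Proliferation markers fell with IL4 in 3 of 4 tested, with sums of 208 to 327 CPM unstimulated and 60.9 to 156 with IL4, and their part in the members' values was not tested.

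The authors' deposited tables of called genes, with a false discovery rate under 0.05, hold 28 members for immature macrophages against precursors, of which 26 were called here. The authors' deposited tables hold 31 members for mature macrophages against precursors and 2 each for mature against immature macrophages and for IL4, all of them called here. Other members were called here only. They were 6 for immature macrophages against precursors, 11 for mature macrophages against precursors, 8 for mature against immature macrophages and 0 for IL4.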

How the data were processed

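The counts are whole reads per gene in 2 tables the authors deposited, 1 of the 9 differentiation libraries and 1 of the 6 IL4 libraries. Per the submitters' processing notes HISAT2 2.0.5 and edgeR were used, and the builds GRCm38.p6 and GRCm39.p6 are named. The counting program, the use of strand and the treatment of reads with several matches are named in no label or header read here. The deposited log2 RPM values were used as an alternative only, and the authors' lists give an FDR, an adjusted p-value of their own fit. Each count table was fitted whole with edgeR 4.0.16 in R 4.3.3 (quasi-likelihood test, TMM, filterByExpr with a minimum count of 10, Benjamini-Hochberg over all genes, called under 0.05), with the 3 libraries of each group as replicates and no block. The scripts were tested on simulated data. Alternatives were DESeq2 1.42.0, limma 3.58.1, other scalings and filters, a stricter threshold, a fit of only the libraries compared, the mouse number as a block, and each library left out in turn.

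The titles give every group the same mouse numbers. Deviations from the group means correlated between same-numbered libraries of the IL4 table at 0.596, 0.168 and 0.413. Unstimulated library 3 and IL4 library 2, whose numbers differ, correlated at 0.257. The block was therefore fitted beside the main fit, and whether it is a true pairing cannot be told. Among differentiation libraries the correlations of same-numbered libraries were -0.152 to 0.241. The replicates of a group are labelled as different mice, so p-values measure the spread between libraries labelled so. Values in every library were given for called members with the extreme fold changes of each complex at 5 CPM or more, the Sdh genes, isoform families and the most abundant members. Other members named were chosen after their values were seen. The members and all lists were chosen with earlier results of these data known. Positions and exon overlaps come from the GENCODE annotation and promoters from RefSeq. Results for some genes are not reported here.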

Additional observations from a re-analysis of the deposited data

How the results depend on the processing

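The median fold change of the members from immature to mature macrophages was 0.04 and changed sign, to -0.04 without immature library 1 and -0.01 without mature library 1. From precursors to immature macrophages, the number of members higher was 18 to 33 (20.5% to 37.1%) and lower 1 to 3 with 1 library left out. In those fits 17.4% to 21.2% of all genes were higher and 20.0% to 24.1% lower. At an adjusted p under 0.001 the members' counts were 1 and 0. From immature to mature macrophages, 1 to 9 members were higher (1.12% to 10.1%) and 0 to 3 lower with 1 library left out. In those fits 3.05% to 9.27% of all genes were higher and 4.21% to 10.5% lower. The members' counts were 0 and 0 at 0.001. When only the 6 libraries compared were fitted they were 5 and 0, against 5.38% and 5.20% of all genes. By DESeq2 6 were lower, against 10.3% of all genes, and with the replicate block 5 were higher, against 5.56%. Between precursors and mature macrophages, 29 to 43 members were higher (32.6% to 48.3%) and 1 to 2 lower with 1 library left out, with a median of 0.44 to 0.60. In those fits 21.4% to 26.5% of all genes were higher and 24.6% to 30.5% lower. At 0.001 the members' counts were 5 and 0. With IL4, 1 to 3 members were higher (1.43% to 4.29%) with 1 library left out, with a median of 0.11 to 0.27. In those fits 7.64% to 9.80% of all genes were higher. The members' count was 1 by DESeq2, against 10.2% of all genes. It was 10 (14.3%) with the replicate block, against 16.2%, and 0 at 0.001. In the differentiation libraries the number does not pair samples by the data, and there as in the IL4 table the block is a check only. The causes of these changes were not tested beyond what the settings themselves remove.

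With plain library totals, the mean summed level in precursors was 6513 CPM for all subunits, 1732 for complex I, 451 for II, 649 for III, 981 for IV and 2700 for V. Counted per kilobase of exons, complex I had 27.3% of subunit reads in mature macrophages. In precursors, immature and mature macrophages in turn, complex II had 4.39%, 5.50% and 4.70%, complex III 11.9%, 11.6% and 13.0%, complex IV 21.7%, 24.2% and 23.4%, and complex V 35.6%, 32.0% and 31.6%. Without and with IL4, complex I had 28.2% and 27.2%, II 3.86% and 3.98%, III 14.1% and 14.3%, IV 32.6% and 32.7%, and V 21.2% and 21.8%. Depth limits the rare forms Cox6a2, Cox6b2, Cox7a1 and Cox4i2, and the IL4 table's libraries were the shallower ones.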
